A study of Mus musculus with 28 samples.

Results

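H3K27Ac, the acetylation of lysine 27 on histone H3 that marks active promoters and enhancers, was compared between WT and Spen KO mouse embryonic stem cells (mESCs). All peaks of both deposited H3K27Ac lists were taken, 13922 in WT and 11932 in Spen KO, which are 25854 of the 227343 peaks in the 10 lists of the series. Peaks with an overlap of 1 bp or more between the genotypes were termed shared, and the rest were termed WT-only or Spen KO-only by the list that holds them. There were 5544 WT-only peaks (39.8% of the WT list, Wilson 95% interval 39.0 to 40.6), 8378 shared peaks in the WT list, 8422 shared peaks in the Spen KO list and 3510 Spen KO-only peaks (29.4%, 28.6 to 30.2). Among the shared peaks, 6195 pairs overlapped 1-to-1, and for these the rank of the peak was compared.

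The cells were HATX mESCs of mixed genomic background, a haploid line in which Xist can be switched on from a transgene by doxycycline, present in both genotypes, grown in serum with LIF. The Spen KO cells were 1 clone, clone 2, in which most of Spen is deleted, so that the effect of the deletion and any other property of this clone cannot be told apart. Each genotype had 2 H3K27Ac libraries, which the study's methods call technical replicates, and the same cells were profiled for H3K4me3, H3K9me3 and Oct4, with 28 samples in the series including inputs. Differences are therefore set against the spread between libraries of 1 line, and p-values measure only that spread. The lists keep only peaks on which the 2 libraries agreed (IDR, the irreproducible discovery rate, below 0.05), so this spread is understated. Read numbers were not used here and the depth of each library is unknown. In a population of cells, a peak carried by fewer cells and a weaker peak in each cell cannot be told apart.

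Spen, also known as SHARP or MINT, is a large RNA-binding repressor that recruits corepressor complexes and through them the histone deacetylase HDAC3. It is best known for the silencing of the X chromosome by Xist RNA and as a repressor of Notch target genes, where it binds RBPJ. Acetylation of H3K27 is written by the acetyltransferases p300 and CBP, is erased by histone deacetylases, and occupies enhancers together with Oct4 and other pluripotency factors in mESCs.

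Sequences from the peaks with the strongest differences are shown first, since promoters and distal peaks differed in their CpG content. Each is the central 200 bases of a peak, read on the plus strand of the mm9 assembly, with CG dinucleotides in capitals. The Spen, Rnf220, Olig1 and Gm10287 peaks had the highest percentile of their class and position among peaks on all autosomes but 1 in which no sampled 31-base word occurred at least 10 times in the genome, and the Fcrl5 and Dcdc2b peaks had the largest rank gain and rank loss.
Spen promoter, Spen KO-only, chr4:141093112-141093311: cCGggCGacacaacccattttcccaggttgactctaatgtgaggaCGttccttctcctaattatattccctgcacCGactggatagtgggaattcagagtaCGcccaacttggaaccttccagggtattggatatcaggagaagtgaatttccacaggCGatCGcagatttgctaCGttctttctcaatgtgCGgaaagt
Rnf220 intron, Spen KO-only, chr4:117040492-117040691: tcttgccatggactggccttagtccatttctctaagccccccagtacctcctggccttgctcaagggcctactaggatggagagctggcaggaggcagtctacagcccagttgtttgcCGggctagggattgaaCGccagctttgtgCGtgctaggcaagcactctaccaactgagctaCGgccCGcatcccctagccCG
Olig1 promoter, WT-only, chr16:91270885-91271084: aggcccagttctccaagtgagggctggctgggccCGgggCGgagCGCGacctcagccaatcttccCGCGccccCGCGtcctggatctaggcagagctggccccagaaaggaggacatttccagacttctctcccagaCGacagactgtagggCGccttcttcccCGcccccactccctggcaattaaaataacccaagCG
Gm10287 distal, WT-only, chr3:148883793-148883992: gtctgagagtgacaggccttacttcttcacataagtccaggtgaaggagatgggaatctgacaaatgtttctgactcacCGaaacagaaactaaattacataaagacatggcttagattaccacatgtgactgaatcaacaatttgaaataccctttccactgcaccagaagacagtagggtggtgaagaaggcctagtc
Fcrl5 distal, largest rank gain, chr3:87284371-87284570: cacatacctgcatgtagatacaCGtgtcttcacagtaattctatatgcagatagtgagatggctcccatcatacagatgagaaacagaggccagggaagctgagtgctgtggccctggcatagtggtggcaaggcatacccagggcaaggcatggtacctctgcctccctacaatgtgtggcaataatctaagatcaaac
Dcdc2b, largest rank loss, chr4:129287144-129287343: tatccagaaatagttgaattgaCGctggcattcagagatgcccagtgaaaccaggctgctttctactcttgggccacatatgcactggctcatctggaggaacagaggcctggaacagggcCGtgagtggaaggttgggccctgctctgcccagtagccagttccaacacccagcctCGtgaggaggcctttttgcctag
The promoter stretches held 9 CG sites at Spen and 12 at Olig1. Away from promoters there were 6 in the Rnf220 intron, 3 at Dcdc2b, and 1 each at Gm10287 and Fcrl5.

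At the targeted gene, the promoter of Spen (chr4:141091960-141094464) held the highest-ranked autosomal Spen KO-only peak. Its scores in the Spen KO libraries were 54.6 and 64.0, at the 97.3rd and 99.1st percentile of the library scores, and the WT list had no overlapping peak. An H3K4me3 peak lay over this promoter in both genotypes, at the 68.0th percentile of the WT list and the 89.4th of the Spen KO list. Acetylation of the promoter does not check the deletion of the gene body. The cell type was checked on its markers. Of 25 matched genes of general and naive pluripotency, 22 had H3K27Ac within 1000 bp of a transcription start site (TSS) in both genotypes. Among the 5 lists of trophoblast, mesoderm, 2-cell-like, germline and fibroblast genes there were 0 such promoters. Of 14 primitive endoderm genes 1, Sparc, had such a promoter. Of 11 matched neural genes 0 had it in both genotypes and 1, Olig2, in WT alone.

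The rank of a shared peak was the percentile of its mean score within its own list, and the rank change was the Spen KO percentile minus the WT percentile. Across the 6195 pairs the median absolute rank change was 14.2 percentile points. The percentiles of the 2 WT libraries differed by a median of 14.5 points at the same peaks and those of the 2 Spen KO libraries by 12.97 points, so that a typical change was about as large as the spread between libraries. With limma on the library percentiles, 0 pairs passed an adjusted p of 0.05, the smallest adjusted p was 0.230, and 817 pairs (13.2%) had an unadjusted p under 0.05, of which 301 ranked higher and 516 lower in Spen KO. On the log2 score, fixed as an alternative scale, limma called 148 pairs, 77 higher and 71 lower, and the smallest change among them was 1.12 higher and -1.11 lower on the log2 scale.

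As a description, a pair was termed a gain when both Spen KO libraries ranked it above both WT libraries and the mean rank differed by at least 20 points, and a loss in the opposite case. There were 706 gains, 11.4% of the pairs, and 1077 losses, 17.4%. The excess of losses depended on the scale, since with percentiles taken among the shared peaks alone there were 927 gains and 946 losses. Among pairs with the libraries of the genotypes apart, the threshold separates neighbours of almost equal value. The smallest gain was 20.02 points and the largest increase below the threshold was 19.95 points. A further 527 pairs changed by 20 points or more in either direction but were left out, since their libraries were not apart. Of the 77 pairs called higher on the log2 score, 72 were gains, and all 71 called lower were losses. Both rest on the same scores, so this overlap is no check of either.

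**Figure D1:**
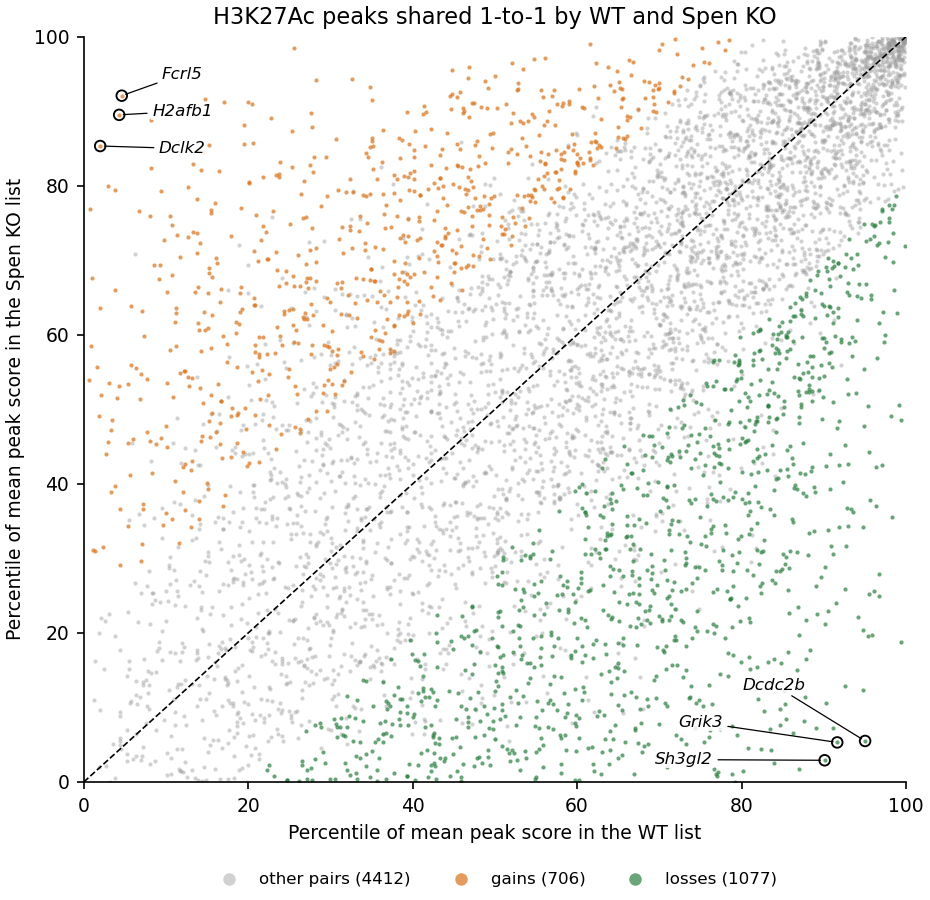
H3K27Ac peaks that overlap 1-to-1, with the percentile of the mean score in the WT list on the x axis and in the Spen KO list on the y axis, 1 point per pair, 706 gains in orange, 1077 losses in green and the dashed line at equal rank. Gains and losses lie on either side of a broad band of other pairs, and the strongest peaks of both lists sit near the upper end of the diagonal.

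The largest gains among autosomal pairs were mostly distal. Of the 10 largest, 5 were intergenic, 3 lay in introns and 2 overlapped exons, and 1 was at a promoter. Their WT percentiles ran from 0.277 to 27.9 over both libraries and their Spen KO percentiles from 64.0 to 94.2, so that the genotypes did not overlap, as the definition of a gain requires. On the log2 score all 10 passed limma (adjusted p from 0.000168 to 0.0124, changes of 1.35 to 1.91), and on percentiles none did (adjusted p 0.230 for each). These pairs were picked by the size of the change in the same scores, so the log2 result is not separate evidence.

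The largest gain lay in intergenic sequence 44.4 kb from the TSS of Fcrl5, an Fc receptor-like gene of B cells. The WT peak, chr3:87284246-87284696, was 451 bp wide with library scores of 9.22 and 9.13, and the Spen KO peak was 3521 bp wide with scores of 43.9 and 35.1. The library percentiles were 4.42 and 8.37 in WT against 93.1 and 88.8 in Spen KO, and the fitted difference was 84.6 ± 9.20 points (SE, 2 libraries per genotype). The peak lay in an H3K9me3 domain of both genotypes.

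The gain nearest to H2afb1, a histone H2A variant gene, lay 54.1 kb from its TSS at chr2:17863787-17864451. Library percentiles were 2.87 and 13.02 in WT against 94.2 and 76.5 in Spen KO. It overlapped an H3K4me3 peak in the Spen KO list and none in the WT list.

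In an intron of Dclk2, which encodes a doublecortin-like kinase, the pair at chr3:86646278-86647255 had library scores of 7.93 and 8.17 in WT against 33.9 and 31.1 in Spen KO. The percentiles were 1.78 and 4.37 against 85.5 and 83.7. An H3K9me3 domain covered it in the WT list alone, and 1 Spen KO Oct4 library had a peak there.

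The promoter gain was at BC021614 (chr19:4057695-4059205), with library percentiles of 1.98 and 8.37 in WT against 81.9 and 76.9 in Spen KO. H3K4me3 was present in both genotypes but weak, at the 14.0th percentile of the WT list and the 10.3rd of the Spen KO list. The other 6 gains lay nearest to Tspan3, Rpp21, Gm6616, Snapc5, Hps5 and Car2, with rank changes from 74.2 points at Car2, a carbonic anhydrase gene, to 80.5 points at Tspan3, a tetraspanin gene. The Tspan3 and Rpp21 peaks were narrow, 399 and 451 bp in Spen KO, and overlapped Oct4 peaks of both Spen KO libraries and 1 WT library. The Gm6616 peak grew from 697 to 2971 bp, the Snapc5 peak, in an intron of Map2k1, from 2497 to 6684 bp and the Car2 peak from 741 to 2906 bp. Of the 10 gains, 3 overlapped H3K9me3 in WT and 1 in Spen KO.

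**Figure D2:**
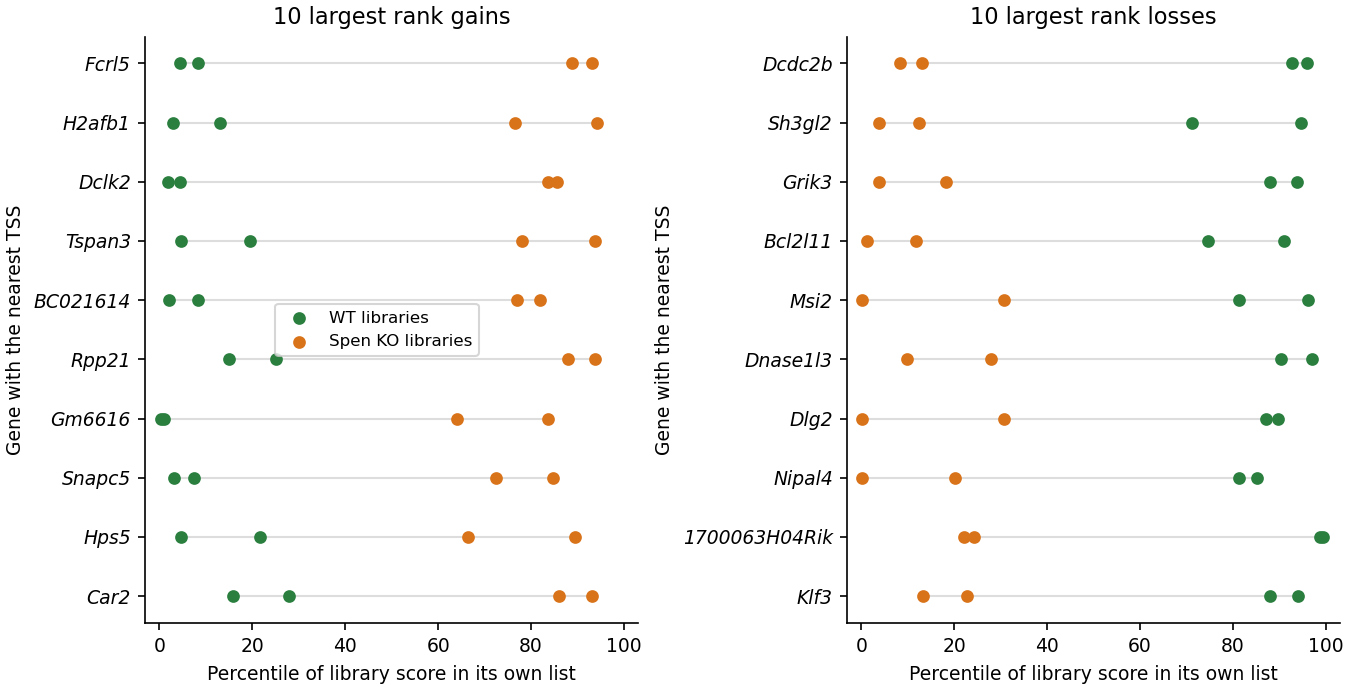
Percentile of each library's score in its own list on the x axis for the 10 largest autosomal rank gains (left) and losses (right), 1 row per pair named by the gene with the nearest TSS, WT libraries in green and Spen KO libraries in orange. In every row both libraries of 1 genotype lie on the same side of both libraries of the other, with the widest spread within a genotype at Msi2 and Dlg2.

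Among the 10 largest losses none was at a promoter, 5 were in introns, 4 were intergenic and 1 overlapped an exon. The WT percentiles ran from 71.1 to 99.4 and the Spen KO percentiles from 0.0587 to 30.8. All 10 passed limma on the log2 score (adjusted p from 4.69e-05 to 0.0116) and none on percentiles (adjusted p 0.230 for each). As with the gains, the pairs were picked on the same scores, so the log2 result is not separate evidence.

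The largest loss lay 3.04 kb from the TSS of Dcdc2b, a doublecortin domain gene. It overlapped Dcdc2b, 2510006D16Rik and an exon. The WT peak, chr4:129286025-129288463, had scores of 37.2 and 33.2 and was 2439 bp wide, and the Spen KO peak had scores of 12.1 and 12.2 and was 1047 bp wide. Library percentiles were 92.7 and 96.0 in WT against 8.402 and 12.99 in Spen KO, a fitted difference of -83.7 ± 9.19 points. An H3K4me3 peak overlapped it in the WT list alone.

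In an intron of Sh3gl2, which encodes the endocytic protein endophilin A1, the peak width was 3081 bp in WT against 322 bp for the Spen KO peak. The library percentiles were 94.7 and 71.1 against 3.89 and 12.4. In an intron of Grik3, a kainate receptor subunit gene, they were 88.0 and 93.8 against 3.89 and 18.2, and at both genes H3K4me3 overlapped the peak in WT alone.

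The pair with the strongest WT signal of the 10 lay 22.6 kb from 1700063H04Rik. Its scores were 55.2 and 48.1 in WT against 14.3 and 13.7 in Spen KO, at percentiles of 98.8 and 99.4 against 24.3 and 22.0. This was the smallest adjusted p on the log2 score, 4.69e-05, with a change of -2.07. The other 6 losses were nearest to Bcl2l11, the gene of the pro-apoptotic protein Bim, Msi2, Dnase1l3, Dlg2, Nipal4 and Klf3, with rank changes from -79.8 to -85.2 points. At Msi2 and Dlg2 the Spen KO libraries stood far apart, with percentiles of 0.130 and 30.8 and of 0.0587 and 30.8. Of the 10 losses, 5 overlapped H3K4me3 in WT and 1 in Spen KO, and 0 overlapped H3K9me3 in WT and 1, at Dlg2, in Spen KO.

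Promoter and distal pairs were then compared. A peak was called promoter when a TSS of a protein-coding gene lay within 1000 bp, and distal otherwise. Of 3157 distal pairs, 678 (21.48%) were losses and 371 (11.8%) gains, and of 3038 promoter pairs, 399 (13.1%) were losses and 335 (11.0%) gains. Peak widths at gains and losses also differed between the genotypes. The median width at distal gains was 1025 bp for the WT peaks against 1434 bp for the Spen KO peaks, and at distal losses 1625.5 bp against 975 bp, whereas the median ratio of Spen KO to WT width over all pairs was 0.963. At promoter gains the median widths were 1009 and 996 bp, and at promoter losses 1158 and 884 bp.

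Strong peaks were rarely found in 1 genotype alone. Of the WT-only peaks, 268 (4.83%) were in the top 25% of their list by score, and of the Spen KO-only peaks 151 (4.30%), against 38.4% of the shared WT peaks. Median percentiles were 26.98 among WT-only peaks and 27.99 among Spen KO-only peaks. Spen KO-only peaks were narrow, with a median width of 711.5 bp against 946 bp for WT-only peaks, and together they covered 3.09 Mb against 6.39 Mb.

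The 8 autosomal Spen KO-only peaks with the highest mean score included the Spen promoter. An intron of Rnf220, a ubiquitin ligase gene, held the strongest distal one (chr4:117039247-117041936), with scores of 52.6 and 57.6 and library percentiles of 96.8 and 98.4. H3K4me3 there was at the 32.9th percentile of the WT list and the 77.2nd of the Spen KO list. In an intron of Gse1, a gene whose protein is found with the LSD1 and CoREST repressor complex, the scores were 38.5 and 70.3, and the library percentiles 89.6 and 99.5.

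The remaining 5 lay nearest to Chrm3, Sorl1, Dclk2, 2810004N23Rik and Dnahc7c. The peak 44.5 kb from Chrm3 was 317 bp wide and overlapped H3K4me3 and H3K9me3 in both genotypes. At 2810004N23Rik the peak was 265 bp wide and 76.7% of its sampled 31-base words occurred at least 10 times in the genome, which makes it a multi-copy sequence. The Dclk2 peak (chr3:86644535-86645360), with library percentiles of 96.0 and 93.5, lay close to the gain described above and overlapped H3K9me3 in WT alone and H3K4me3 in Spen KO alone. Of the 8 peaks, 4 overlapped H3K9me3 in WT and 3 in Spen KO.

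The 8 strongest autosomal WT-only peaks held no promoter and 0 overlapped H3K9me3 in either genotype. The first lay in an intron of Mta3, which encodes a subunit of the NuRD deacetylase complex (chr17:84149715-84151648), with scores of 44.7 and 46.7 and library percentiles of 96.7 and 99.3. The peak 7.98 kb from Cdkn1a, the gene of the cell cycle inhibitor p21, had scores of 35.0 and 33.3. Near Smoc1, H3K4me3 was at the 94.6th percentile of the WT list and the 11.6th of the Spen KO list. The others were nearest to Gm10287, Cldn3, Gstm3, Pptc7 and Mthfd1l. H3K4me3 overlapped 6 of the 8 in WT and 3 in Spen KO. The strongest WT-only promoter was that of Olig1, a neural transcription factor gene, at the 93.2nd percentile with library percentiles of 95.4 and 85.9.

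Several genes held many peaks of 1 genotype. Each peak was given to the nearest TSS of a protein-coding gene within 100 kb, which gave 6717 autosomal genes at least 1 peak. Of these, 153 had at least 3 more Spen KO-only than WT-only peaks, 465 the reverse, and 574 had both kinds. At least 5 Spen KO-only and 0 WT-only peaks were found at 30 genes, and the opposite at 126. WT-only peaks also outnumbered Spen KO-only peaks over the whole lists, 5544 against 3510. With the WT list cut to the length of the Spen KO list, their shares were 32.7% and 31.8%. These gene counts therefore cannot be told apart from the difference in list length.

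Dclk2 led the Spen KO side with 13 Spen KO-only and 0 WT-only peaks over 112 kb, of which 12 were inside the gene and 1 was intergenic. H3K27Ac peaks covered 22.6 kb there in Spen KO and 4.10 kb in WT, and the 3 pairs shared at this gene were all ranked higher in Spen KO, by 42.2 to 83.3 points. Inhbb, which encodes the activin beta B subunit, followed with 11 against 0, all intergenic, over 86.5 kb, and with 54.1 kb covered in Spen KO against 17.0 kb in WT. At Rnf220 there were 13 against 2, all 13 within the gene, and at H2afb1 9 against 0, all intergenic.

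The core pluripotency gene Sox2 had 8 Spen KO-only peaks, all intergenic, and 0 WT-only peaks. These were weak, with a median percentile of 13.7, and its 3 shared pairs had rank changes from -29.8 to 15.5 points. The others past the same limit of 7 more Spen KO-only peaks were 6430527G18Rik and Sik1, with a difference of 8, and 9 genes tied at 7. Among the latter were Jarid2, the gene of a Polycomb cofactor, Nfkb1, Klf9 and Gse1. At Tns1, the gene of the focal adhesion protein tensin, 7 Spen KO-only peaks covered 11.1 kb inside the gene and WT had 0 peaks of any kind. Restricted to the stronger 50% of each list, the difference was 7 at Dclk2, 6 at Inhbb, 5 at Gse1 and H2afb1, between 1 and 4 at Rnf220, 6430527G18Rik, Sik1, Nfkb1, Tns1 and 4 others, and 0 at Sox2, Jarid2 and Klf9. When peaks within 1000 bp of each other were treated as overlapping it was 1 at Nfkb1 and 2 at 6430527G18Rik.

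Mta3 led the WT side with 18 WT-only and 0 Spen KO-only peaks, 12 of them inside the gene, and with 31.7 kb covered in WT against 1.70 kb in Spen KO. Myh9, the gene of nonmuscle myosin heavy chain IIA, had 16 against 1 and 39.8 kb against 4.61 kb. The difference was 14 at Arl15 and Tanc1, and 13 at Ptprf, Rbpms and Tgif1, a homeobox repressor gene of the TGF-beta pathway. At Tgif1 the 6 shared pairs had a median rank change of -40.8 points. Dab2ip, Ncoa3, a nuclear receptor coactivator gene, and Slc7a5, an amino acid transporter gene, tied at 11. Arl15, Dab2ip and Slc7a5 had no H3K27Ac peak at all in Spen KO, and in WT their peaks covered 17.1, 15.8 and 11.98 kb. With the WT list cut to the length of the Spen KO list, the difference was 5 at Slc7a5, 6 at Dab2ip, 8 at Ptprf and 13 at Mta3. In the stronger 50% of each list it was 8 at Arl15, 6 at Mta3 and Rbpms, 5 at Dab2ip, 4 at Myh9, Ptprf and Tgif1, 2 at Ncoa3 and Slc7a5 and 1 at Tanc1.

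**Figure D3:**
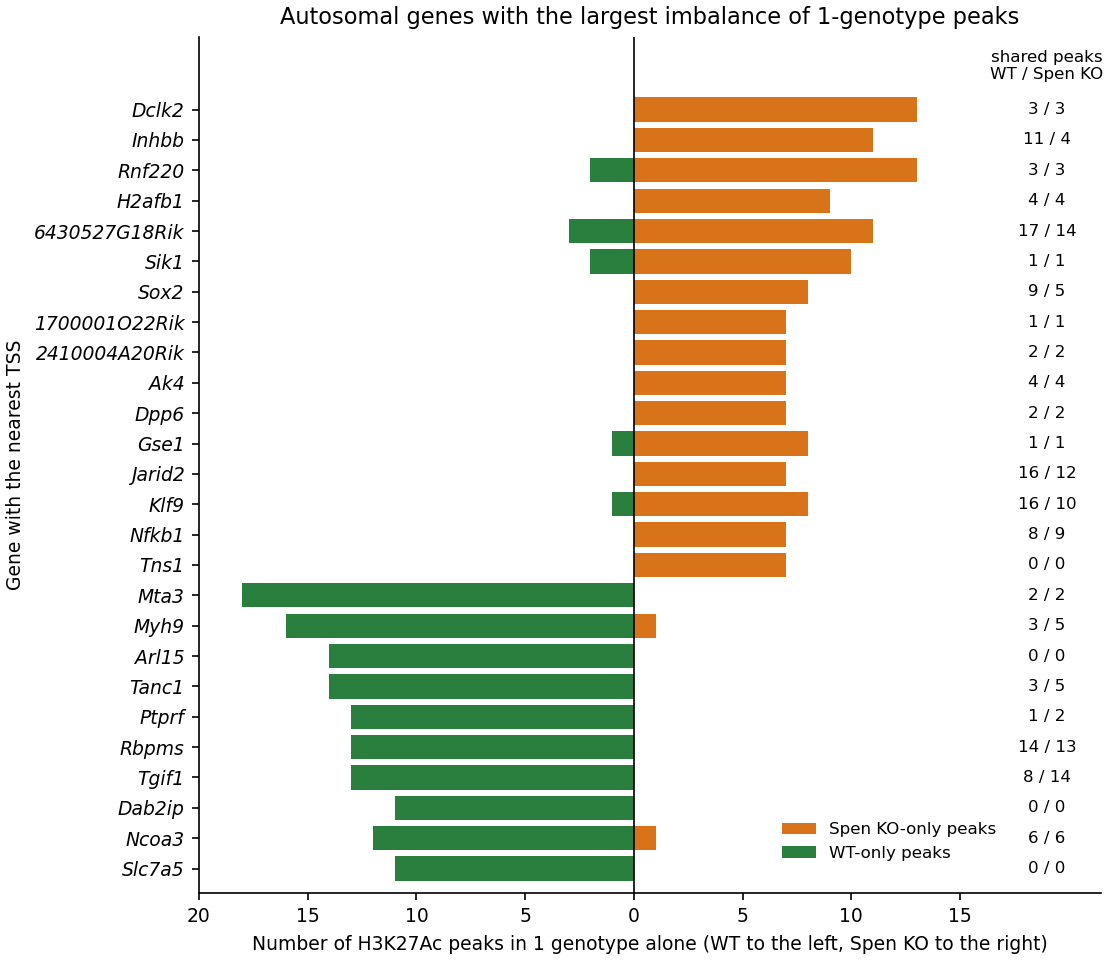
Number of WT-only peaks (green, left) and Spen KO-only peaks (orange, right) per autosomal gene for the 16 genes with the largest excess of Spen KO-only and the 10 with the largest excess of WT-only peaks, each peak given to the nearest TSS within 100 kb, with the number of shared peaks in each list at the right. Dclk2 and Rnf220 reach 13 Spen KO-only peaks, and Mta3 reaches 18 WT-only peaks with 2 shared peaks in each list.

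The balance also differed between autosomes. The number of Spen KO-only peaks per WT-only peak ran from 0.213 on chromosome 17 to 1.26 on chromosome 19. Losses made up 29.5% of the pairs on chromosome 12 and 27.9% on chromosome 10, against 10.1% on chromosome 9 and 10.4% on chromosome 19. On chromosome 17 the share of gains, 4.62%, was the lowest of the 19 autosomes. With 1 clone per genotype, these values describe these lines.

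Promoters made up 32.4% of Spen KO-only peaks (Wilson 95% interval 30.9 to 34.0, 1138 peaks) and 17.2% of WT-only peaks (16.2 to 18.2, 951 peaks), against 45.02% and 43.7% of shared peaks in WT and Spen KO. Wilson intervals cover counting error over peaks only, since neighbouring peaks are not independent. The ratio of observed to expected CpG in the central 500 bp had a median of 0.750 (quartiles 0.540 and 0.876) at Spen KO-only promoters and of 0.402 (0.237 and 0.692) at WT-only promoters, with 0.675 and 0.721 at shared promoters. The median GC content of the whole peak was 60.9% at Spen KO-only and 54.8% at WT-only promoters. At distal peaks the medians of the CpG ratio lay between 0.191 and 0.199 in all 4 classes.

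**Figure D4:**
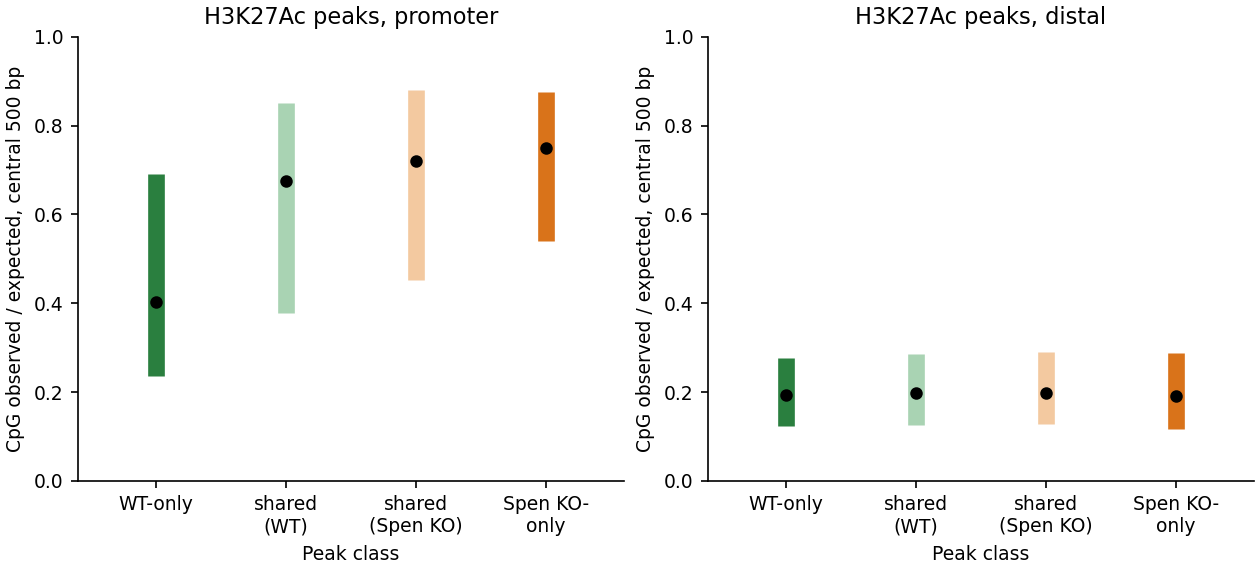
Ratio of observed to expected CpG in the central 500 bp of H3K27Ac peaks (y axis) by peak class (x axis), for promoter peaks (left) and distal peaks (right), with the median as a point and the quartiles as a bar. WT-only promoters stand lower, at a median of 0.402, than the other promoter classes, and the distal classes lie together near 0.2.

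Of the distal Spen KO-only peaks 61.7% lay in intergenic sequence and 30.8% in introns, and of the distal WT-only peaks 32.8% and 46.9%. The median distance to a TSS was 18.7 kb for the former and 12.98 kb for the latter. The ESRRB motif TCAAGGTCA, searched on both strands of the central 500 bp, was found in 2.41% of distal Spen KO-only, 2.45% of distal shared Spen KO, 2.28% of distal shared WT and 1.37% of distal WT-only peaks. It occurred in 1.54% to 1.65% of windows of the same length 10 kb away. The Wilson intervals of the Spen KO-only and WT-only shares, 1.86 to 3.10 and 1.07 to 1.75, did not overlap. They cover counting error over peaks only, so this is no test of a difference between the genotypes. At promoters the shares were 0.439% and 1.05%, and over all peaks 1.77% (1.38 to 2.26) and 1.32% (1.05 to 1.65), with overlapping intervals. At distal peaks the shares for the octamer ATGCAAAT were 2.11% and 2.03%, for the KLF motif GGGTGTGG 6.41% and 6.34%, for the AP-1 motif TGANTCA 14.5% and 15.1%, and for the TEAD motif GGAATG 24.1% and 25.8%, with overlapping intervals for each.

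The neighbouring marks came from other libraries and were not used to define the classes, although H3K4me3 shared its input libraries with H3K27Ac. H3K4me3 is deposited at active and CpG-rich promoters. It overlapped 93.2% of Spen KO-only promoters in the WT list (91.6 to 94.6) and 93.6% in the Spen KO list and thus most of these promoters also had an H3K4me3 peak in WT. At WT-only promoters the shares were 85.7% in WT (83.3 to 87.8) and 78.8% in Spen KO (76.1 to 81.2), with 74 promoters marked in WT alone and 8 in Spen KO alone. Away from promoters, WT-only peaks overlapped H3K4me3 in 31.8% of cases in WT and 20.7% in Spen KO, and Spen KO-only peaks in 20.1% and 22.6%. Wider peaks meet other lists more easily, and the median width was 952 bp at distal WT-only and 764 bp at distal Spen KO-only peaks. The part of width in these shares was not tested.

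**Figure D5:**
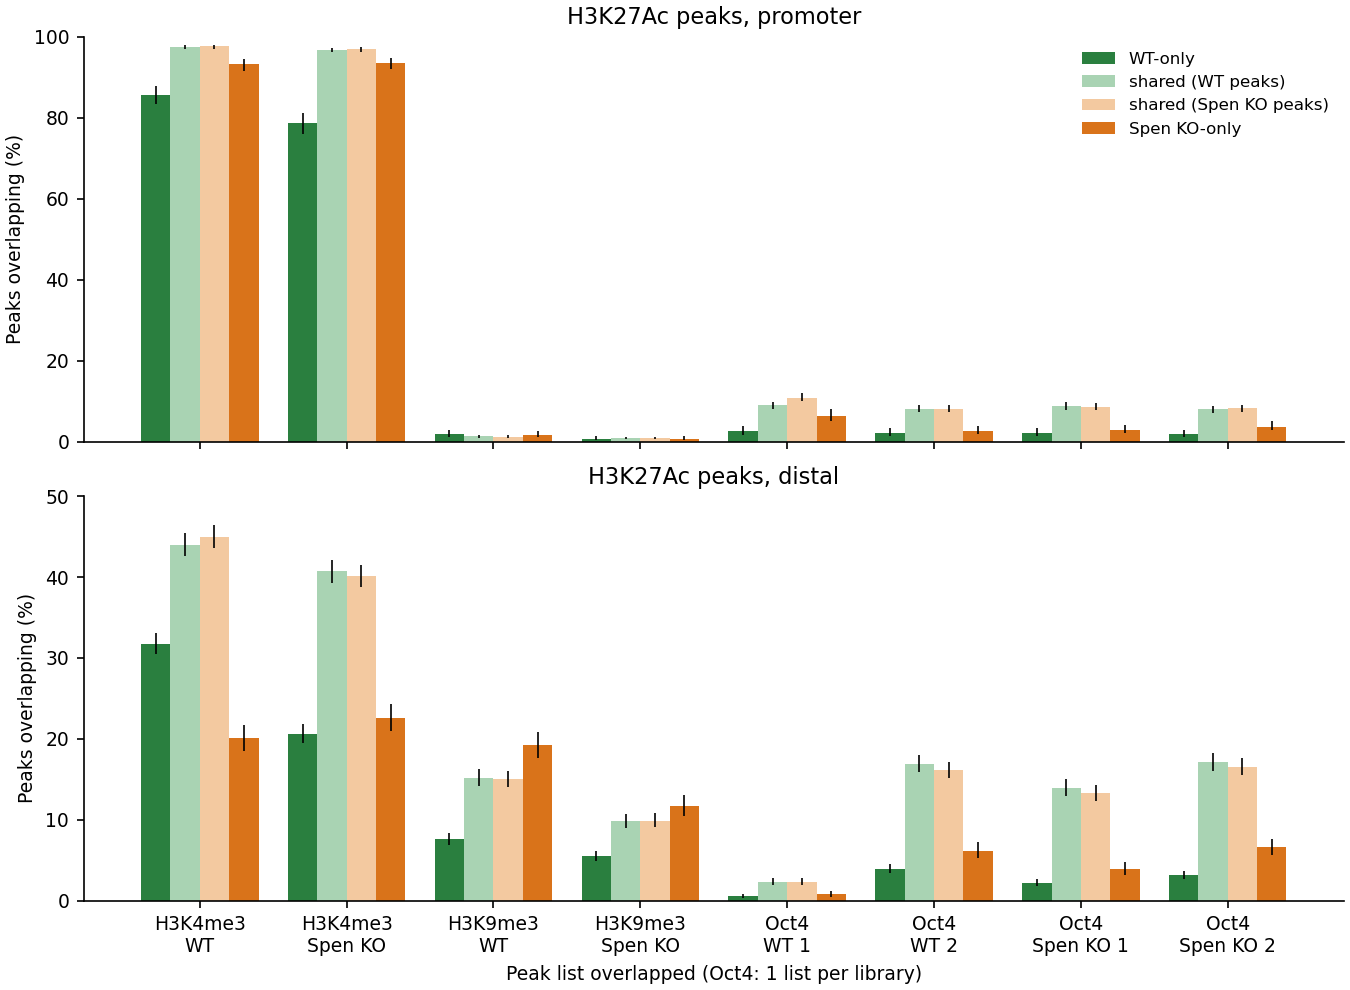
Share of H3K27Ac peaks (y axis, percent) that overlap each peak list of the other marks (x axis), by class in colour, for promoter peaks (top) and distal peaks (bottom, with a smaller y range), error bars being Wilson 95% intervals over peaks. Distal WT-only peaks drop from 31.8% with H3K4me3 in WT to 20.7% in Spen KO, and distal Spen KO-only peaks have the highest share with H3K9me3 of WT, 19.2%.

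H3K9me3 marks heterochromatin and silenced repeats. Of the distal Spen KO-only peaks, 19.2% (17.7 to 20.9) overlapped an H3K9me3 domain of WT and 11.8% one of Spen KO, with 202 peaks in WT domains alone and 25 in Spen KO domains alone. For distal shared peaks of the Spen KO list the values were 15.04% and 9.92%, and for distal WT-only peaks 7.58% and 5.49%. The share was thus lower with the Spen KO domains in each of these distal classes. Multi-copy sequence made up 5.32% of distal Spen KO-only, 3.00% of distal shared Spen KO and 1.11% of distal WT-only peaks, and without it the share of Spen KO-only peaks in WT domains was 17.6%. At promoters all shares were under 2%. At distal gains, 21.8% overlapped H3K9me3 in WT and 11.6% in Spen KO, at distal losses 12.7% and 8.85%, and over all distal pairs 17.1% and 11.2%.

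For Oct4, the transcription factor encoded by Pou5f1, the share of distal peaks with an Oct4 peak was higher among shared peaks than in either class of 1 genotype in each of its 4 lists. At distal peaks the shares for the lists of WT library 1, WT library 2, Spen KO library 1 and Spen KO library 2 were 0.801%, 6.197%, 3.92% and 6.62% for Spen KO-only, 0.544%, 3.96%, 2.22% and 3.16% for WT-only, and 2.30%, 16.1%, 13.3% and 16.6% for shared Spen KO peaks. The first WT library had few distal peaks in every class. Without it, distal gains overlapped Oct4 in 13.7% for WT and in 14.3% and 19.4% for Spen KO, and distal losses in 12.4% for WT and in 9.59% and 10.6% for Spen KO, against 16.2%, 13.02% and 16.3% over all distal pairs.

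The level of H3K4me3 was followed at the same sites by its own rank change over 23462 pairs of H3K4me3 peaks. Over all of these, 4.51% were H3K4me3 gains and 14.7% losses by the 20-point rule, with a median rank change of -4.67 points. The limma test on library percentiles called 0 pairs at an adjusted p of 0.05 (smallest adjusted p 0.418) and 2457 had an unadjusted p under 0.05. At 333 H3K4me3 pairs beside H3K27Ac gains, 8.71% were H3K4me3 gains and 6.91% losses, with a median change of -0.08 points. At 470 pairs beside H3K27Ac losses the shares were 3.19% and 17.9%, with a median of -5.25 points, and beside the other H3K27Ac pairs 5.45% and 10.4%. At peaks of 1 genotype, H3K4me3 gains and losses made up 13.4% and 9.48% at distal Spen KO-only peaks and 3.13% and 19.9% at distal WT-only peaks. At promoters the shares were 7.14% and 8.55% for Spen KO-only and 4.30% and 16.3% for WT-only peaks.

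Promoters were then counted by gene. Of 21275 autosomal protein-coding genes, 16.9% had an H3K27Ac peak within 1000 bp of a TSS in both genotypes, 4.19% (892 genes) in Spen KO alone and 3.01% (641 genes) in WT alone. The gene lists that follow are described by counts beside these shares, beside the 11.4% gains and 17.4% losses of all pairs and beside the 39.8% WT-only and 29.4% Spen KO-only peaks of the whole lists. Pairs were given to the nearest TSS at any distance.

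Among the pluripotency genes, 22 of 25 had promoter acetylation in both genotypes and 1, Dppa3, in WT alone, while Tcl1 and Prdm14 had none. Near these genes 28 of 140 Spen KO peaks were Spen KO-only and 20 of 136 WT peaks WT-only (14.7%). Sox2 and Tbx3 held 17 of the 28 Spen KO-only peaks and 3 of the WT-only peaks, and the other genes had 11 against 17. Of 60 pairs 8 were gains and 9 losses, with a median rank change of -1.004 points. Pou5f1, Sox2, Utf1 and Sall4 had promoter pairs at or above the 98.9th percentile of both lists, with rank changes between -0.05 and 0.14 points. So close to the top of a list a rank can hardly change, so these values do not show that the scores were unchanged. Tbx3, a T-box factor of naive pluripotency, had 9 Spen KO-only peaks against 3 WT-only peaks, and its peaks covered 32.9 kb in Spen KO and 13.7 kb in WT. The Spen KO-only peak at its TSS, chr5:120118732-120120915, had scores of 38.3 and 32.8, at the 89.4th and 86.6th percentile, and of its 4 shared pairs 3, 84.2 to 91.3 kb from the TSS, were gains and 1 was a loss. Near Prdm14, 3 of 9 pairs were losses and the covered length was 25.6 kb in WT and 14.99 kb in Spen KO. At the promoter of Esrrb, an orphan nuclear receptor gene, 1 pair was a loss of 38.5 points, while a neighbouring pair inside the gene was a gain of 40.1 points. The promoter pairs of Nr5a2 changed by 2.1 and 46.9 points, the latter a gain. At Lin28a the promoter pair changed by -36.1 points, and a pair in its intron was a loss of 47.8 points. Klf4 had a Spen KO-only peak 216 bp from its TSS, and Klf5 had 5 WT-only and 0 Spen KO-only peaks.

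Of 11 genes of primed pluripotency, Dnmt3a and Zic2 had promoter acetylation in both genotypes, Lef1 in Spen KO alone and Dnmt3b, a de novo DNA methyltransferase gene, in WT alone. The promoter peaks of Lef1 and Dnmt3b were weak, at the 14.2nd percentile of the Spen KO list and the 10.5th of the WT list. Dnmt3b had 3 WT-only peaks, 0 Spen KO peaks and 4.50 kb covered in WT. Otx2, a transcription factor of the primed state, had 4 Spen KO-only peaks between 5988 and 32444 bp from its TSS and no WT peak. The strongest of them, chr14:49273449-49275619, had scores of 29.1 and 32.6, at the 79.5th and 86.1st percentile. Foxd3 had 5 WT-only peaks and 1 Spen KO-only peak. The list held 8 Spen KO-only peaks of 15 (53.3%) and 11 WT-only peaks of 19 (57.9%). Of its 5 pairs 1 was a gain and 1 a loss, with a median rank change of 24.65 points. The promoter pairs of Dnmt3a changed by 36.7, 30.3 and 2.8 points, of which the change of 30.3 was the gain. The promoter pair of Zic2 changed by 24.7 points. The loss lay 8029 bp from the TSS of Lef1, which had 2 Spen KO-only and 2 WT-only peaks.

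For the Notch pathway, whose RBPJ-bound targets Spen represses, 4 of 21 genes had promoter peaks in both genotypes, 1, the target gene Hes1, in WT alone, and 16 had none. The WT peak of Hes1 lay 856 bp from the TSS and was paired with a Spen KO peak just beyond the 1000 bp window, with a rank change of 3.3 points, and a pair 18457 bp from the TSS was a gain of 26.8 points. The promoter peak of the receptor gene Notch4 (chr17:34701855-34702364) had library percentiles of 1.70 and 0.467 in WT against 57.4 and 59.7 in Spen KO, a gain of 57.5 points, and passed limma on the log2 score (adjusted p 0.0105). The promoters of the ligand gene Jag1 and of the coactivator gene Maml1 were losses of 43.3 and 27.6 points. Rbpj itself, the DNA-binding factor of the pathway, had 7 Spen KO-only and 2 WT-only peaks, and its 2 promoter pairs had rank changes of 0.6 and 11.7 points. Of the 14 pairs of the list 3 were gains and 2 losses, and the list held 10 Spen KO-only peaks of 25 and 5 WT-only peaks of 21 (23.8%).

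The corepressor partners of Spen and the deacetylases were acetylated at 10 of 12 promoters in both genotypes. Of their 16 pairs 1 was a gain and 4 were losses, with a median of -17.0 points. Of their 35 Spen KO peaks 31.4% were Spen KO-only, and of their 39 WT peaks 43.6% were WT-only. Ncor1, the gene of the corepressor NCoR, had 7 Spen KO-only peaks against 1 WT-only peak and 32.2 kb covered in Spen KO against 16.2 kb in WT. Hdac3, which encodes the deacetylase that acts with Spen, had 1 WT-only peak and no promoter peak. The promoter of Hdac2 was a loss of 35.4 points.

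Among 12 genes of the H3K9me3 silencing machinery, 10 had promoter peaks in both genotypes, Ehmt1, a histone H3K9 methyltransferase gene, in WT alone and Atf7ip, a partner of SETDB1, in Spen KO alone. The Atf7ip peak was weak, at the 3.69th percentile of the Spen KO list, and the Ehmt1 peak was at the 28.3rd of the WT list. In this list 2 of 22 Spen KO peaks (9.09%) were Spen KO-only and 16 of 36 WT peaks (44.4%) WT-only, and its peaks covered 40.1 kb in Spen KO and 61.96 kb in WT. Of its 13 pairs 1 was a gain and 2 were losses, of 53.7 points near Cbx1 and 46.9 points near Ehmt2. The promoter pairs of Setdb1, Trim28 and Suv39h2 had rank changes of -9.3, -3.9 and -30.3 points, and the gain, of 60.9 points, lay 4343 bp from the TSS of Trim28. The acetyltransferases and bromodomain readers had promoter peaks in both genotypes for 8 of 9 genes, 3 Spen KO-only peaks of 17 (17.6%) and 11 WT-only peaks of 28 (39.3%), and 1 gain and 0 losses among 10 pairs. At the promoter of Ep300, the gene of p300, the rank change was -1.0 points.

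In the LIF and STAT3 pathway, which sustains self-renewal, 6 of 10 genes had promoter peaks in both genotypes. Lifr, the receptor gene, had 2 Spen KO-only peaks at its promoter, the stronger with scores of 23.8 and 24.6 at the 67.5th and 71.5th percentile. The list held 4 Spen KO-only peaks of 28 (14.3%) and 15 WT-only peaks of 40 (37.5%), 5 of the latter near Pim1, and 0 gains and 2 losses among 17 pairs. Genes of the differentiated lineages carried little H3K27Ac in either genotype. Sparc was the one primitive endoderm gene of 14 with promoter acetylation, in both genotypes, and Olig2 the one neural gene of 11, in WT alone, with scores of 31.1 and 25.8. Bmp4 had 3 Spen KO-only peaks and Hnf4a 2, all distal, while Tead4 had 3 WT-only peaks and Gata3 1. Of the 10 mesoderm, 5 2-cell-like and 12 fibroblast genes, 0 were the nearest gene of a peak within 100 kb in either list.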

How the data were processed

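The HATX WT and Spen KO clone 2 libraries were grouped by their labels. Per the paper's methods, the authors aligned to mm9 with Bowtie2, kept uniquely mapped pairs, removed duplicates with Picard, called peaks with MACS2 (q-value 0.01) over input and kept an IDR below 0.05. Each deposited H3K27Ac and H3K4me3 peak holds a score for each library, whose MACS2 column is not given in the sources used here. The deposited H3K9me3 lists hold a score, and the Oct4 lists the ratio over input as fold enrichment, 1 list per library. The authors compared read counts, which were not analysed here, and depth is unknown. Differences in depth change list length and which weak peaks are listed, so scores were turned into percentiles within each list. These values, rather than counts, entered limma 3.58.1 (R 4.3.3, empirical Bayes, Benjamini-Hochberg over all pairs). A check on simulated data required added shifts to be found only at a spread smaller than the observed one. Passing it does not show that such shifts would be found at the observed spread. TSSs came from the GENCODE annotation of mm9. The reference is not soft-masked, so repeats were judged by 31-base words sampled every 8 bases, multi-copy meaning at least 10 copies for at least 50% of them. The 14 WT and 12 Spen KO peaks on unplaced sequence have no sequence values. Genes were named by rule: the 10 largest gains and losses, with libraries apart since no pair was called, the 8 strongest peaks of 1 genotype, the 8 genes with the largest imbalance with ties, and list members. Members and lists were chosen with earlier results of these data known. Of the list genes, Tfcp2l1, Tfap2c, Foxf1, Sox1, Tcstv1 and Tcstv3 were not matched. Alternatives are given in the closing section.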

Additional observations from a re-analysis of the deposited data

How the results depend on the processing

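Limma on the log2 score called 148 pairs, 77 higher and 71 lower, where percentiles called 0. With percentiles among shared peaks, without the lowest 25% of both lists, with 50% overlap of the shorter peak and on autosomes alone, the count was also 0. It was 0 too with 1 library left out, where the lone library is assumed to vary like the other genotype, which says nothing about stability. Gains ran from 939 to 1113 and losses from 1404 to 1450 with 1 library left out, the 1113 gains being without the first WT score. There the lone library of a genotype alone had to stand apart, which loosens the rule. The rank change was then the difference of mean library percentiles. These counts are therefore not comparable with the 706 gains and 1077 losses of the main setting. Losses outnumbered gains in all of these alternatives on percentiles, but only by 946 to 927 with percentiles among shared peaks. On the log2 score slightly more pairs were called higher than lower. The WT-only and Spen KO-only shares were 32.5% and 22.2% with a gap of up to 1000 bp, 17.9% and 12.6% for the stronger 50% of each list, 32.7% and 31.8% with lists of equal length and 32.6% and 31.6% at an IDR of at most 0.01, so that the excess of WT-only peaks became small with the last pair of settings. With a TSS within 2500 bp, promoters made up 25.2% of WT-only and 37.3% of Spen KO-only peaks, and for WT-only peaks the share was 20.03% in the stronger 50% and 19.1% with equal lists. H3K9me3 of WT overlapped 24.2% of distal Spen KO-only and 9.22% of distal WT-only peaks in the stronger 50%, 22.6% and 10.2% with the gap, 8.62% of distal WT-only peaks with equal lists and 17.6% of distal Spen KO-only peaks without multi-copy peaks, a setting added after seeing the data. H3K4me3 of WT overlapped 90.5% of Spen KO-only promoters in the stronger 50% and 97.01% with the gap, and H3K4me3 of Spen KO overlapped 83.6%, 82.1% and 88.3% of WT-only promoters in the stronger 50%, with equal lists and with the gap. The median H3K4me3 change beside H3K27Ac gains turned to 0.0837 on the log2 score and ran from -1.22 to 2.44 points with 1 library left out, 2.44 being without the second Spen KO score, and beside losses it was -0.0505 on the log2 score and ran from -6.30 to -3.44 points. The cause of these shifts was not tested. Of the 26 genes with the largest imbalance none changed its direction, although 3 reached 0 in the stronger 50%, and the imbalances of the other genes described were not recomputed. No paired analysis was possible because the scores do not name their library.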
